A study of Mus musculus with 2 samples.

Results

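Cluster 17 was a small group of neuronal cells in single-cell RNA libraries of the mouse dura, the outer membrane around the brain. Its members are the 186 cells that the authors' deposited cell table places in cluster 17, of 12544 annotated cells in 22 clusters. The Il33 het library holds 123 of its own 5950 annotated cells there, and the Il33 KO library 63 of 6594. The working name of the cells came from Neurod1, a basic helix-loop-helix factor that drives neuronal differentiation, and Elavl2, a neuronal RNA-binding protein.

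The mice were at postnatal day 14. The Il33 het mice carried 1 Il33mcherry allele, an H2B-mCherry reporter placed in the Il33 gene, beside 1 intact allele, and the Il33 KO mice carried the reporter on both alleles. The reporter is therefore present in all mice, and there is no library without it. Each genotype gave 1 library, pooled from 5 to 8 mice of each sex. The dura was scraped from the skullcap and digested with Liberase, and CD45+ CD11b- cells, gp38+ CD31- cells and all viable cells were sorted and recombined, so a cell's share of a library reflects the sort as well as the tissue. With 1 library per genotype no test between genotypes is possible. Every interval below is a 95% interval that covers counting error alone, and levels are counts per 1000000 UMIs (CPM), from the summed UMIs of the cluster's cells in each library.

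IL-33 is an alarmin cytokine of barrier and stromal cells that acts on leukocytes through the receptor ST2 (Il1rl1). In cluster 17 Il33 itself had 18 UMIs in 4 het cells, 12 of them in 1 cell, and 1 UMI in 1 KO cell. Of these 19 UMIs 17 were in 3 cells that also carried fibroblast UMIs, in the sub-group lettered B below. Over all annotated cells it was 43.5 CPM in the het library and 9.68 CPM in the KO library, lower in the library labelled KO and not at 0. Of the 7 genes listed for the IL-33 pathway, 0 were 2-fold above the mean of the other clusters in cluster 17, where 7.88% of the 19347 genes of the table were. Il1rl1 had 1 UMI, in a KO cell. Il4, Il13 and Il13ra2 had 0 UMIs in the 186 cells.

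Granule neurons of the cerebellum are small glutamatergic neurons made after birth from progenitors that lie on the surface of the cerebellum, directly under the meninges. The progenitors express Atoh1 and divide in response to Sonic hedgehog, whose receptor is Ptch1 and whose effectors include Gli2 and Mycn. Cells that leave division switch on Neurod1, Cntn2 and Rbfox3, extend processes, migrate inward and build glutamate receptors. The transcription factors Zic1, Zic2, Pax6, Barhl1 and Meis1 mark the lineage.

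Most of the listed granule neuron markers were high in cluster 17. Of 12 listed granule neuron markers 8 were at least 2-fold above the mean of the other 21 clusters, where 7.88% of all genes were. Each of those 8 was highest in cluster 17 among the 22 clusters, where 8.72% of all genes were highest. Zic1, a zinc finger factor of the dorsal neural tube and cerebellum, was at 1027 CPM in het and 1049.9 CPM in KO cells, against at most 252 CPM in any other cluster. Pax6 was at 505 and 518 CPM, with 53.1 CPM in the next cluster. Barhl1, a homeobox factor of granule cell progenitors, was at 202 and 173 CPM, and no other cluster exceeded 6.43 CPM. Cbln1, a secreted organiser of granule cell synapses, was at 61.5 and 62.4 CPM, with 13.0 CPM in the next cluster.

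The 4 listed markers that did not reach 2-fold were Gabra6, Cbln3, Etv1 and Calb2. Gabra6, the GABA receptor subunit of mature granule neurons, had 4 UMIs, all in het cells, and Cbln3 had 3. The 12 markers summed to 2468 CPM in het and 2454 CPM in KO cells, against a mean of 189 CPM over the other clusters. The cells are called cerebellar granule neuron-like on these markers. The tissue label is dura, and the labels name no brain tissue. A UMI of Neurod1 was found in 97.6% of het and 95.2% of KO cells. In the lymphoid clusters 1, 2, 6, 10 and 16 the share was 0.985% and 0.415%. Median depth was 11260 and 10713 UMIs per cell in cluster 17 and 4965 and 4967 in those lymphoid cells.

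**Figure D1:**
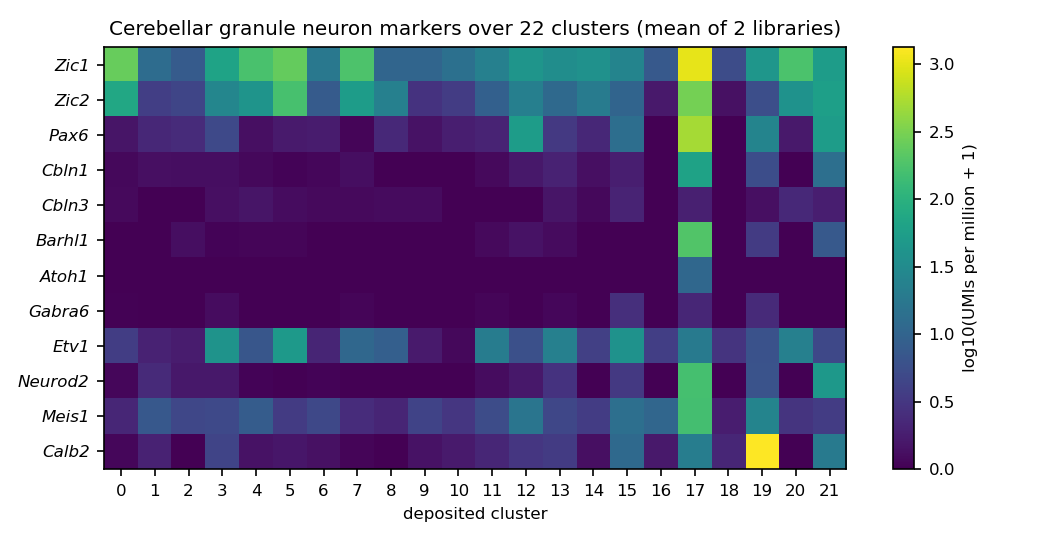
Levels of the 12 listed cerebellar granule neuron markers (rows) in the 22 deposited clusters (columns), as log10 of CPM plus 1, each the mean of the Il33 het and Il33 KO libraries. Cluster 17 holds the highest value of 8 markers, and Atoh1 is at 0 in all the other clusters, while Calb2 is highest in cluster 19.

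Lists for other cell types passed in full, in part or not at all. All 10 pan-neuronal markers were at least 2-fold above the mean of the other clusters, where 7.88% of all genes were. Of these 10, Dcx and Rbfox3 were highest in cluster 17, and the others were higher in another cluster. None of 9 markers of peripheral sensory neurons, 10 of mature olfactory neurons or 7 of Schwann cells were 2-fold above that mean. The mature olfactory markers summed to 12.4 CPM in het and 30.1 CPM in KO cells, against a mean of 434 CPM elsewhere. Of 10 pinealocyte markers 1 passed, Otx2, a homeobox factor also known from granule cell progenitors, at 139.6 and 128 CPM. Of 10 immature olfactory neuron markers 6 passed (Gap43, Stmn1, Dpysl5, Crmp1, Nhlh1 and Nhlh2), genes that are also known from other growing neurons. Of these 6, 4 were highest in cluster 17 (Stmn1, Crmp1, Nhlh1 and Nhlh2). Of 8 inhibitory neuron markers 5 passed, and the 8 summed to 21.9 and 91.3 CPM. Of those that passed, Dlx1 and Dlx6os1 had 0 het UMIs and 13 KO UMIs each, in 2 KO cells each. A UMI of Gad1, Gad2 or Slc32a1 was found in 11 of 186 cells. Of 8 cortical projection neuron markers 3 passed (Neurod6, Slc17a7 and Eomes), and of 4 vomeronasal neuron markers 2 did (Gnao1 and Meis2). Meis2 had 3 het UMIs and 38 KO UMIs, 22 of them in 1 KO cell. Eomes, a T-box factor known from cortical progenitors and from unipolar brush cells of the cerebellum, was at 59.8 and 65.9 CPM, with UMIs in 48 het and 27 KO cells.

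Cluster 17 was defined on these expression values, so its levels against other clusters describe it and test nothing. The 30 genes with the highest ratio over the mean of the other clusters were each highest in cluster 17, and a UMI of each was found in 51.6% to 98.4% of its cells. Over the next highest cluster they were 1.72-fold to 49.0-fold higher, with a median of 11.2-fold, and 16 of the 30 were at least 10-fold higher. The next highest was cluster 19 for 14 of them and cluster 15 for 7. Of the 30, 3 were on the granule neuron list and 1 was on the immature olfactory neuron list. Over 6449 genes the profile of cluster 17 had its highest correlation with cluster 19 (Pearson's r = 0.759 across genes, which are not independent), then cluster 15 (0.734) and cluster 21 (0.718).

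First among the 30 was Igfbpl1 (ENSMUSG00000035551, chromosome 4, 45809468 to 45826923, GRCm38), a secreted protein of developing neurons, at 1318 CPM in het and 1229 CPM in KO cells, with 27.7 CPM in cluster 19. Cntn2 (ENSMUSG00000053024, chromosome 1, 132509427 to 132543256), the axonal adhesion protein TAG-1 of newly postmitotic granule neurons, was at 398 and 390 CPM. Rbfox3 (ENSMUSG00000025576, chromosome 11, 118489762 to 118911597), which encodes the NeuN antigen, was at 241 and 267 CPM. Levels in both libraries were close for these 3 genes, and each was at least 27.7-fold above the next cluster. Lhx1, at rank 3 of the 30, was 34.8-fold above the next cluster. It was at 333 CPM in het and 250 CPM in KO cells, a ratio of 0.751 (0.639 to 0.880).

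The names behind the working label were less restricted. Neurod1 (ENSMUSG00000034701, chromosome 2, 79452521 to 79456751) was at 1537 CPM in het and 1813 CPM in KO cells, and cluster 21 reached 580 CPM. Elavl2 (ENSMUSG00000008489, chromosome 4, 91250763 to 91400785) was at 463 and 434 CPM, and cluster 19 reached 112 CPM. Insm1, a zinc finger factor of neuronal progenitors, was at 492 and 478 CPM, with 281 CPM in cluster 19. Bhlhe22, Nhlh2, Neurod2 and Scrt2, all neuronal transcription factors, were also among the 30, as was Tlx3, a homeobox factor of glutamatergic neurons.

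**Figure D2:**
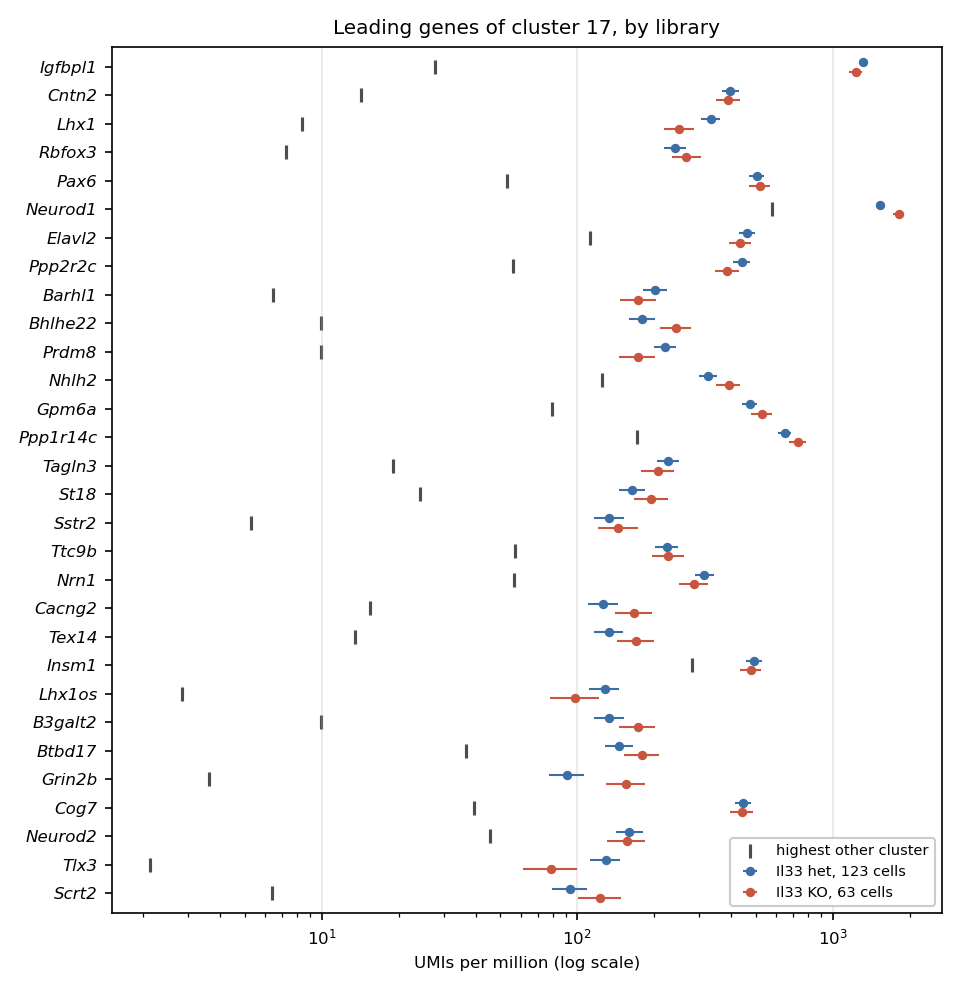
The 30 leading genes of cluster 17 in CPM on a log axis, in Il33 het cells (blue, n = 123) and Il33 KO cells (red, n = 63) with 95% Poisson intervals of the counts, and the level in the highest other cluster (grey bar). Every gene lies above its grey bar in both libraries, and Grin2b and Tlx3 are the 2 genes whose libraries differ by 1.5-fold or more.

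By role, most transcription factors, cytoskeletal genes and RNA-binding protein genes on the lists lay above the mean of the other clusters. All 5 ZIC genes and 18 of 25 neurogenic transcription factors were at least 2-fold above the mean of the other clusters. Among all genes 7.88% were. The 5 ZIC genes and 14 of the 25 factors were highest in cluster 17, where 8.72% of all genes were. Nfib and Nfia, CCAAT-box factors of granule neuron maturation, were at 2856 and 1169 CPM in het and 3032 and 1202 CPM in KO cells, and both were highest in cluster 17. Sox11, a factor of immature neurons, was at 1632 and 1827 CPM, with 1483 CPM in cluster 19. The neurite cytoskeleton passed in 24 of 24 genes, such as Tuba1a at 4619 and 5512 CPM, and the neuronal RNA-binding proteins in 17 of 20. Of these lists, 13 of the 24 and 11 of the 20 genes were highest in cluster 17.

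Synaptic genes were partly present. Of 22 presynaptic genes 18 passed, and 13 of 24 voltage-gated channel genes, where 7.88% of all genes did. On these lists 4 presynaptic and 8 channel genes were highest in cluster 17, where 8.72% of all genes were. Of 19 excitatory synapse genes 10 passed, among them Slc17a6, the vesicular glutamate transporter VGLUT2, at 129 CPM in het and 109.8 CPM in KO cells. Gria2, an AMPA receptor subunit, was at 180.5 and 242 CPM and was highest in cluster 17. Of 21 inhibitory synapse genes 7 passed, including Gabra2, a subunit of the receptor for GABA. Slc17a7, the VGLUT1 transporter of mature granule neurons, had 22 het and 6 KO UMIs.

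Cells of cluster 17 spanned division and maturation. Of the 186 cells, 133 (71.5%) had UMIs of all 5 of Neurod1, Elavl2, Pax6, Zic1 and Barhl1, and 173 had at least 4. An Mki67 or Top2a UMI, from genes of dividing cells, was found in 66 cells. Atoh1 was seen in 17 of those 66 and in 2 of the other 120 cells. Grin2b, a subunit of the NMDA receptor, was seen in 17 of the 66 and in 79 of the 120. Rbfox3 was detected in 49 and 106 cells in the same order. Atoh1 was thus seen mainly in cells with division genes and Grin2b mainly in cells without them.

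Ward clustering of the 186 cells gave 3 sub-groups at the highest mean silhouette (0.443). Sub-group A held 34 cells and was set apart by the cell cycle. All 20 cell cycle genes were 2-fold above the other cells of the cluster, where 3.69% of all genes were. Top2a was at 979 CPM against 38.7 CPM in the other cells, and Nusap1 at 331 against 5.46 CPM. The deposited phase call was G2M for 29 and S for 5 of the 34. Median depth was 20920.5 UMIs in sub-group A and 9910 UMIs in sub-group C, the largest with 145 cells. Sub-group B held 7 cells led by the fibroblast genes Apod, Dcn and Lum, and is described with the cells of mixed content below.

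A division into 4, at a lower silhouette of 0.262, left A and B as they were and split sub-group C into 96 cells that kept the letter and 49 cells lettered D. Sub-group D had a median of 7805 UMIs, and 47 of its 49 cells were called G1. Its leading genes included Plxna2, a semaphorin receptor, at 323 CPM against 30.4 CPM in the other cells. Kcna1, a potassium channel of axons, was at 126 against 10.9 CPM, Pcp4 at 104 against 6.66 CPM and Npas4 at 59.7 against 2.85 CPM. Arpp21 and Sez6 led as well, and so did Calb2, the calcium-binding protein calretinin, at 84.1 against 8.08 CPM. Of 22 presynaptic genes 16 were 2-fold above the other cells in sub-group D, and 14 of 24 channel genes, where 4.25% of all genes were.

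From A through C to D the lineage genes were ordered, with the cells pooled over both libraries. Neurod1 was at 1095 CPM in A, 1681 CPM in C and 2661 CPM in D, and Zic1 at 717, 939 and 1922 CPM. Cntn2 was at 127, 454 and 741 CPM. Neurod2, a factor of later differentiation, was at 42.9, 152 and 383 CPM, and Cbln1 at 22.1, 47.2 and 181 CPM. The differentiation genes had their lowest level in the dividing cells and their highest in D. Grin2b had the widest span of these, at 11.1, 78.7 and 374 CPM.

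Of the progenitor genes, Atoh1, Hes6 and Gli2 had the opposite order. Atoh1, with UMIs in het cells alone, was at 24.9 CPM in A, 13.2 CPM in C and 0 CPM in the 49 cells of D. Hes6, a target of proneural factors, was at 188, 92.7 and 4.42 CPM, and Gli2 at 27.7, 9.11 and 0 CPM. Ptch1 was higher in D than in C, at 85.4, 33.4 and 52.4 CPM in het and 33.8, 30.1 and 37.8 CPM in KO cells. Barhl1 and Elavl2 were more even, at 197, 215 and 168 CPM and at 482, 491 and 409 CPM. Summed presynaptic genes were at 1232, 2277 and 4136 CPM, and summed cell cycle genes at 12069, 1524 and 215 CPM. The sub-groups were made from these values, so the order is a description.

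**Figure D3:**
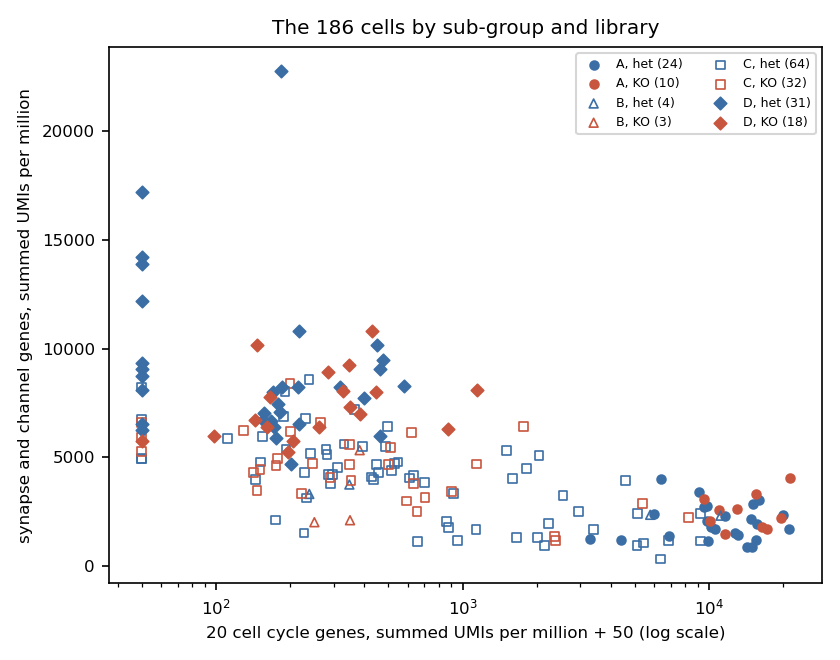
Each point is 1 of the 186 cells: summed CPM of 20 cell cycle genes plus 50 (log axis) against summed CPM of the synapse and channel genes, coloured by library and shaped by sub-group with its cell number. The 34 cells of sub-group A lie at the right with low synaptic sums, the 49 cells of D lie at the upper left, and cells of both libraries are found in each sub-group.

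Both libraries held all 4 sub-groups in similar shares. Sub-group A was 24 of 123 het cells (19.5%) and 10 of 63 KO cells (15.9%), and the ratio of these shares was 0.813 (0.347 to 1.76). Sub-group D was 31 het cells (25.2%) and 18 KO cells (28.6%), a ratio of 1.13 (0.597 to 2.09). An Mki67 or Top2a UMI was found in 38.2% of het and 30.2% of KO cells. After thinning each cell to 1000 UMIs the shares were 18.7% and 12.7%, a ratio of 0.679 (0.263 to 1.57). No difference in the dividing share was detectable at these cell numbers.

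Some cells carried UMIs of other cell types. The 7 cells of sub-group B had 24162 CPM of the 8 fibroblast markers against 432 to 818 CPM in A, C and D. A further 8 cells were set apart by immune genes in a division into 5. These 15 cells were 8 het (6.50%) and 7 KO cells (11.1%) and held 10.6% of the het and 17.4% of the KO UMIs of the cluster. They had a median of 21160 UMIs, and 12 of the 15 were in the 10% of annotated cells with the highest Scrublet doublet score. Those highest 10% held 12 of 123 het cells (9.76%) and 22 of 63 KO cells (34.9%) of cluster 17. Of the other 171 cells they held 5 of 115 het and 17 of 56 KO cells. Their part in the comparisons below was measured by leaving the cells out.

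Stromal UMIs were also found in cells of other types. Thinned to 1000 UMIs, 19.5% of het and 31.7% of KO cells of cluster 17 had a UMI of Col1a1, a fibroblast collagen, and 29.9% and 45.2% of the lymphoid cells did. All 8 fibroblast markers summed to 1939 CPM in het and 2889 CPM in KO cells of cluster 17, with a mean of 10390.0 CPM elsewhere. The 8 macrophage markers summed to 36.7 and 412 CPM, against 2855 CPM elsewhere, and 113 of the 128 C1qb UMIs were in 1 KO cell.

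Between the genotypes, 4090 genes passed a minimum of 100 UMIs in the cluster and were detected in 10% of its cells in at least 1 library. Of these, 152 (3.72%) were at least 1.5-fold higher and 125 (3.06%) at least 1.5-fold lower in KO cells. The split between higher and lower depended on the scaling, since 130 were higher and 165 lower with TMM factors. TMM factors moved every log2 ratio by -0.05. With the mean of the cells' CPM values 135 were higher and 160 lower. Without the 15 cells of mixed content 82 (2.26%) of 3628 genes were higher and 83 (2.29%) lower, and 80 of the 152 and 78 of the 125 still had a ratio at least 1.5-fold from 1 in the same direction, with no minimum of UMIs applied again. Leaving out, for each gene, the cell with the most UMIs in each library gave 82 higher and 166 lower.

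The leading genes differed between genotypes about as often as all tested genes. The median KO to het ratio of the 30 leading genes was 1.02, with 9 intervals above 1 and 4 below 1. Of the 30, 1 was at least 1.5-fold higher in KO cells and 1 at least 1.5-fold lower. Among the 4090 tested genes these shares were 3.72% and 3.06%. The higher one was Grin2b, at 91.1 CPM in het and 155 CPM in KO cells, a ratio of 1.70 (1.34 to 2.16). Within sub-group D it was at 326 and 443 CPM, and in C at 66.7 and 103 CPM. The lower one was Tlx3, at 129 and 78.6 CPM, a ratio of 0.610 (0.457 to 0.804). Of the 10 measured granule neuron markers 5 were higher and 5 lower in KO cells, with a median log2 ratio of -0.01. Of these, 1, Atoh1, was at least 1.5-fold lower, beside 8.83% of the 9323 genes with at least 20 UMIs.

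Ranked by the bound of the interval nearest to 1, the first 15 higher genes included Igfbp6, Lyz2, Sepp1, Fxyd5, Igfbp7, Mgp, Klf2, Cdkn1c, Klf4, Col12a1, Apoe, H19, Igf2 and Cpxm1. None of the 15 was highest in cluster 17, and most are genes of stromal cells or macrophages. Igfbp6 had a ratio of 16.4 with 87.6% of its UMIs in sub-group B. For Lyz2, the lysozyme of myeloid cells, 100 of 112 KO UMIs were in 1 cell, and for Sepp1 302 of 340 were. Among the first 15 lower genes, Col8a1 had 90 of its 118 het UMIs in 1 cell and Apod had 98.6% of its UMIs in sub-group B. The ratios of these 5 genes rest on single cells or on the 7 cells of sub-group B.

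Without the 15 cells the ranking changed. The same rule, applied after these values were seen, kept 1 of the 15 higher and 9 of the 15 lower genes. The higher gene kept was Igf2, at 37.7 CPM in het and 96.6 CPM in KO cells, with 2172 CPM in cluster 4. Cst3 was also among the 15 higher genes, at 266 and 449 CPM, with 22760 CPM in cluster 14. First among the higher genes was Fos, a subunit of the AP-1 transcription factor that is induced within minutes by depolarisation, growth factors or stress. It was at 456 CPM in the 115 het cells and 1679 CPM in the 56 KO cells, a ratio of 3.68 (3.35 to 4.05). Fosb, Jun, Junb, Egr1 and Dusp1 followed within the first 8, and all belong to the same class of immediate early genes. Socs3, an inhibitor of cytokine signaling, was at 40.4 and 125 CPM, a ratio of 3.09 (2.20 to 4.35). Grin2b was at 87.3 and 169 CPM. Stmn4 and Tubb2a, of the growing neurite's microtubules, were at 281 and 476 CPM and at 294 and 467 CPM.

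The 15 lower genes had various known roles. Col8a1 ranked first, with 90 of its 100 het UMIs in 1 cell. Draxin, a secreted repellent for axons, was at 93.9 CPM in het and 36.4 CPM in KO cells, a ratio of 0.387 (0.245 to 0.591). Ephb2, an ephrin receptor, was at 101 and 44.8 CPM, and Plxnb2, a semaphorin receptor that acts in granule cell progenitors, at 149 and 82.6 CPM. Rnd3, an atypical small GTPase of migrating neurons, was at 144 and 71.4 CPM. Cadps2, of vesicle release in granule neurons, was at 132 and 72.8 CPM, and Selm, a selenoprotein of the endoplasmic reticulum, at 505 and 227 CPM. Over all 186 cells, female and male cells each gave a ratio below 1 for Draxin, Ephb2, Plxnb2, Rnd3, Cadps2 and Selm. Of these 30, 3 of the 15 higher and 3 of the 15 lower genes were highest in cluster 17.

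**Figure D4:**
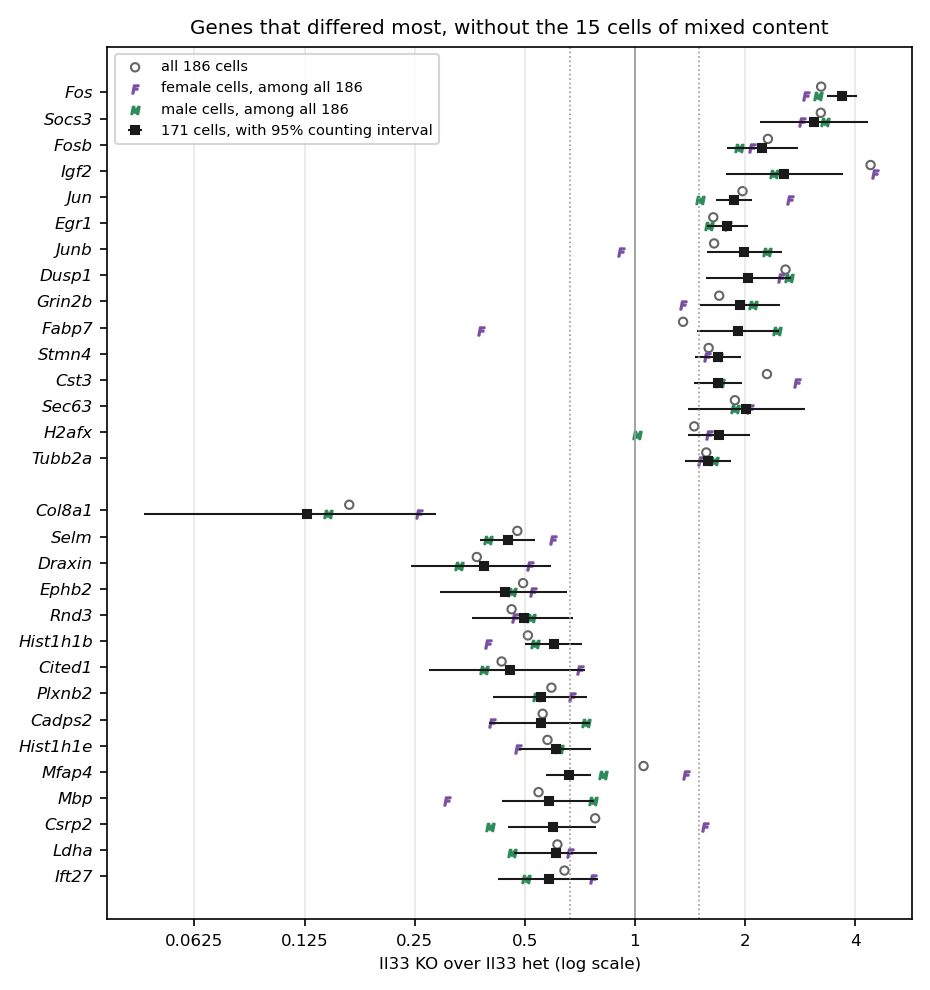
KO over het ratios (log axis) of the 15 genes in each direction that ranked first without the 15 cells of mixed content: squares with 95% counting intervals for the remaining 171 cells, open circles for all 186 cells, and letters for female (F) and male (M) cells among all 186, the cells of mixed content included. The square of Fos lies furthest to the right, and Junb, Fabp7, Mfap4 and Csrp2 have female and male values on opposite sides of 1.

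Immediate early genes were higher in the KO cells as a class. They encode transcription factors and feedback regulators that are transcribed within minutes of a stimulus and without new protein synthesis, and in neurons calcium entry drives them through cAMP response elements and the factor CREB. Of the 22 listed genes 20 had at least 20 UMIs, all 20 were higher in KO cells, and 17 were at least 1.5-fold higher. Among all 9323 genes with at least 20 UMIs 50.4% had a ratio above 1 and 49.6% below 1, 10.7% were at least 1.5-fold higher and 8.83% at least 1.5-fold lower. The median log2 ratio of the list was 1.04, beside 0.00 over all genes.

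Fos (ENSMUSG00000021250, chromosome 12, 85473890 to 85477273) had 931 UMIs in het and 1539 UMIs in KO cells, that is 551 and 1779 CPM, a ratio of 3.23 (2.98 to 3.51). It was detected in 74.8% of het and 93.7% of KO cells. Fosb, its partner subunit, was at 133 and 308 CPM, a ratio of 2.31 (1.93 to 2.77). Jun was at 469.8 and 925 CPM and Egr1, a zinc finger factor, at 421 and 689 CPM. Jund, which is less inducible than the other Jun genes, had the lowest ratio of the list, 1.28 (1.19 to 1.38). Feedback regulators were higher too: Dusp1, a phosphatase of MAP kinases, at 79.3 and 205 CPM, and Zfp36, which destabilises mRNA, at 15.4 and 46.2 CPM. Nr4a1, an orphan nuclear receptor, was at 32.5 and 63.6 CPM.

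Npas4, an activity-dependent factor found mainly in neurons, had the highest ratio of the list. It had 5 UMIs in 5 het cells and 28 UMIs in 9 KO cells, a ratio of 10.9 (4.17 to 36.3). Of the KO cells with a UMI 7 were in sub-group D, where 7 of 18 KO cells and 3 of 31 het cells had one. The other neuronal activity gene of the list, Arc, went the other way, with 9 UMIs in 7 het cells and 0 in KO cells, and Egr3 had 1 UMI. Klf2 and Klf4 had ratios of 6.04 (4.42 to 8.37) and 5.57 (3.85 to 8.20), with 50 of 167 and 34 of 114 KO UMIs in 1 cell each.

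**Figure D5:**
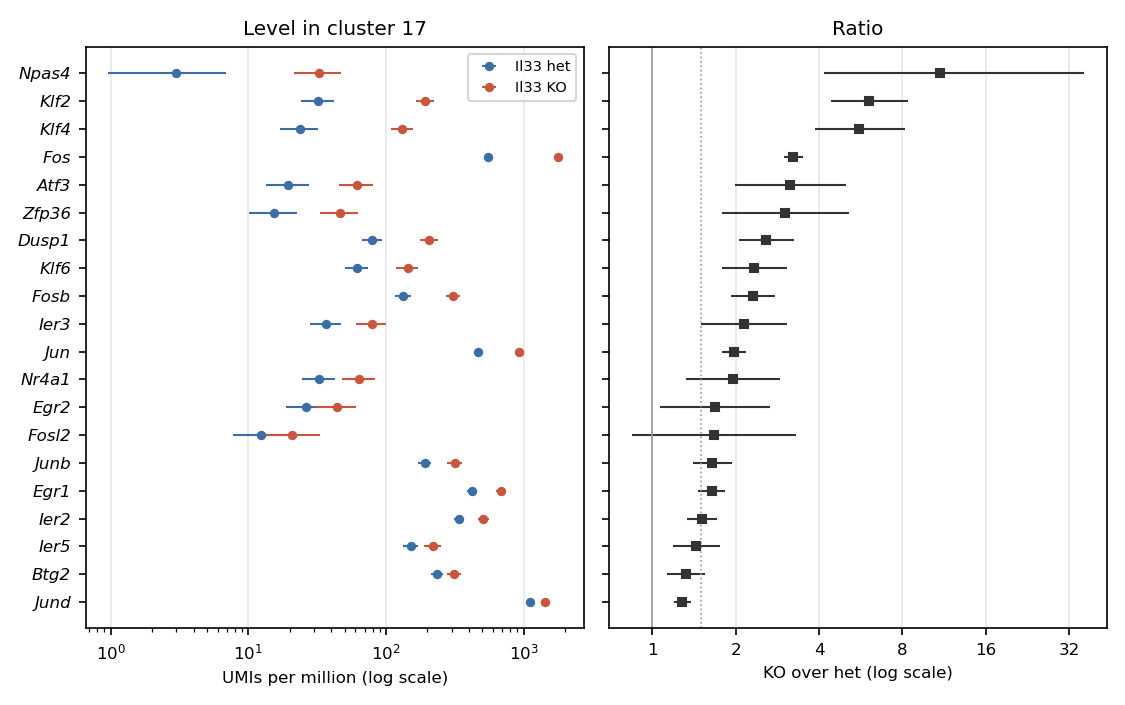
Left, CPM (log axis) of the 20 measured immediate early genes in Il33 het (blue) and Il33 KO (red) cells of cluster 17, with 95% Poisson intervals. Right, the KO over het ratio (log axis) with its counting interval, the line at 1 and the dotted line at 1.5. All 20 ratios lie above 1, from 1.28 for Jund to 10.9 for Npas4.

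The 250 bases upstream of the start site are shown for 4 of these genes as examples. Each holds the core TGACG of the cAMP response element, on either strand, printed in capitals. They are not the genes of highest ratio, since Npas4, Klf2 and Klf4 had higher ratios and also hold the core. The sequences are RefSeq's, in build GRCm38.p6: Fos is chr12:85473640-85473889 on the plus strand, Fosb chr7:19310046-19310295 on the minus strand, Dusp1 chr17:26508473-26508722 on the minus strand and Nr4a1 chr15:101266596-101266845 on the plus strand. None of the 4 windows overlaps an annotated exon.
Fos: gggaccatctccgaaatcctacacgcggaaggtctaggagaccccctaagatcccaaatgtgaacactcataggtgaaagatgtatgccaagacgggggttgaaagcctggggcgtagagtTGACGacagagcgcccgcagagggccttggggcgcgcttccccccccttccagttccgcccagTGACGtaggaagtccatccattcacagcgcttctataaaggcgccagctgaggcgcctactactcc
Fosb: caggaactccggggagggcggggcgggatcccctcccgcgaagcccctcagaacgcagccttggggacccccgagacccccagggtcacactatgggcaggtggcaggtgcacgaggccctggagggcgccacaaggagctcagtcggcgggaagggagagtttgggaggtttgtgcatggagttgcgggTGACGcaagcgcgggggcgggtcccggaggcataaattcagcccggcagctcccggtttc
Dusp1: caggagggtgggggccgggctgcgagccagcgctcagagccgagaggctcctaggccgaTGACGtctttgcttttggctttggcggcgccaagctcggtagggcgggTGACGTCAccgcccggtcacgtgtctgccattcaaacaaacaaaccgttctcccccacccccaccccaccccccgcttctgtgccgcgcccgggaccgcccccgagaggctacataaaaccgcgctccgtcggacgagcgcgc
Nr4a1: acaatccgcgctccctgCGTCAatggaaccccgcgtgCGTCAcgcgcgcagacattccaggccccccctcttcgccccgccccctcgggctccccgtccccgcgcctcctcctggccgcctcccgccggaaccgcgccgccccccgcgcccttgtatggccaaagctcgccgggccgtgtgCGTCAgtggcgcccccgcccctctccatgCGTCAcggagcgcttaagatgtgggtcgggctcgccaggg
Fos holds 2 such cores, Fosb 1, Dusp1 3 and Nr4a1 4, where CGTCA is the same core on the other strand, and in Dusp1 TGACGTCA is the full palindrome. Of the 22 listed genes 18 matched the RefSeq table, and 11 (61.1%) had the core in this window, against 19.8% of 27025 genes. Of the 30 leading genes 23 matched and 8 (34.8%) had it. The median GC content was 64.8% for windows of the listed genes and 52.4% for all windows, and a motif that holds CG is more frequent in GC-rich sequence. The E-box CAGATG, a target of neurogenic factors, was in 3 of the 23 leading genes (13.0%) and in 16.3% of all genes. The CArG box, an AT-rich motif that was also searched, was in 2 of the 18 listed genes (11.1%) and in 1.62% of all genes. It was in 0 of the 23 leading genes. A match of letters describes the window and shows no binding.

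The difference was spread over the cells. Summed over the 22 genes, het cells had a lowest value of 958, a median of 2854 and a highest value of 19405 CPM, and KO cells 1657, 5321 and 30550.3 CPM. The ranges overlapped, and the KO median was above the upper quartile of the het cells, 4552 CPM. Without the 15 cells of mixed content the medians were 2753 and 5082 CPM. Among female cells they were 3309 and 5048 CPM, and among male cells 2792 and 5340.0 CPM. In sub-group A they were 2845 and 4679 CPM, in C 2723 and 4370 CPM, and in D 3150 and 5948 CPM. The KO median was higher in each of these subsets. Without the 15 cells, the median of the summed fibroblast markers was still 496 CPM in het and 1024 CPM in KO cells. The immediate early genes were at a mean of 10837 CPM over the other clusters. Whether UMIs carried over from other cells add to the difference was not tested.

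Of 12 ways of processing, all gave a median log2 ratio of 0.88 to 1.20 for the list, with 18 to 20 genes measured and at most 2 of them lower in KO cells. The value without the 15 cells was 0.90, with 19 of 19 genes higher and 14 at least 1.5-fold higher. Among the 22 clusters the median of the list was highest in cluster 17, followed by 0.78 in cluster 19, and lay between -0.52 and 0.29 in the other 20. The level itself was not high in cluster 17, at 3955 CPM in het and 7509.9 CPM in KO cells against a mean of 10837 CPM over the other clusters. Among the 17 pathway lists with at least 5 measured genes, the next median after this list was 0.30, for apoptosis.

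Progenitor, Hedgehog and Notch genes were uneven between genotypes. Atoh1 had 34 UMIs in 19 of 123 het cells (15.4%, 9.56% to 23.1%) and 0 UMIs in 63 KO cells. A count of 0 allows a share of KO cells with a UMI of up to 4.76% by the limit of 3 counts, and the exact interval reaches 5.69%; neither limits the share of cells that express the gene. Taking 3 counts over all KO cells as the limit, Atoh1 was 5.80-fold lower in KO cells. That value takes the 34 het UMIs as exact and leaves out their counting error. The het cells with Atoh1 were 10 of 24 in sub-group A, 9 of 64 in C and 0 of 31 in D. By sex label they were 2 of 29 female and 17 of 94 male cells. Neurod4, a related factor, had 47 UMIs in het cells, 23 of them in 1 cell, and 5 in KO cells.

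Of the 12 Hedgehog genes 8 were measured, with 4 higher and 4 lower and a median log2 ratio of -0.15. Of these, 1 was at least 1.5-fold higher and 3 at least 1.5-fold lower, beside 10.7% and 8.83% of all genes. Gli2, the main activator of the pathway, had 32 UMIs in 18 het cells and 3 UMIs in 3 KO cells, a ratio of 0.183 (0.0359 to 0.586). Ptch1, the receptor and a target of the pathway, was at 58.6 and 32.4 CPM, a ratio of 0.553 (0.350 to 0.848). It was lower in male KO cells, at 64.6 and 18.1 CPM, and not in female cells, at 41.3 and 47.3 CPM, and that difference was not tested. Mycn, a target that drives division, was at 80.5 and 97.1 CPM. Hes6 was at 118 and 64.8 CPM, and by sex at 122 and 102 CPM in female and 116 and 29.4 CPM in male cells.

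Of 17 Notch genes 9 were measured, with 4 higher and 5 lower. Of these, 2 were at least 1.5-fold higher and 4 at least 1.5-fold lower, beside 10.7% and 8.83% of all genes. Hey1, a repressor downstream of Notch, was at 56.8 and 30.1 CPM, a ratio of 0.529 (0.329 to 0.824), and Dner, a Notch ligand of neurons, at 72.8 and 102 CPM. Of the 20 cell cycle genes 15 were lower and 5 higher in KO cells, and 4 were at least 1.5-fold lower, beside 49.6% of all genes below 1 and 8.83% at least 1.5-fold lower. Those 4 were Hist1h1b at 365 and 186 CPM, Mcm6 at 72.2 and 34.7 CPM, Mcm3 at 60.3 and 38.2 CPM and Ccnb2 at 85.2 and 52.0 CPM. Of these, Mcm3 and Mcm6 are subunits of the replicative helicase and Hist1h1b is a linker histone. The deposited S phase calls were 13.0% of het and 4.76% of KO cells. By sex label they were 10.3% and 10.0% of female cells and 13.8% and 0% of male cells, and that difference was not tested.

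Most neuronal structure genes lay within 1.5-fold. Of 24 neurite cytoskeleton genes 19 were higher and 5 lower, and 2 were at least 1.5-fold higher, Tubb2a and Stmn4, beside 10.7% of all genes. Of 21 measured presynaptic genes 16 were higher and 5 lower, and 2 were at least 1.5-fold lower. These were Syt4, a synaptotagmin, with 19 het UMIs, 9 of them in 1 cell, and 1 KO UMI, and Sncb, beta-synuclein, with 20 and 6 UMIs. All 5 ZIC genes had ratios of 1.02 to 1.19, of which that of Zic1 falls below 1 with TMM factors. Of 20 RNA-binding protein genes 8 were higher and 12 lower, and the 2 at least 1.5-fold lower were Msi1 and Msi2, the Musashi proteins of neural progenitors, at ratios of 0.613 (0.441 to 0.839) and 0.656 (0.518 to 0.824). That count of 2 in 20 is near the 8.83% of all genes at least 1.5-fold lower. Of 17 measured axon guidance genes 10 were higher and 7 lower, 2 at least 1.5-fold higher and 1 at least 1.5-fold lower. Robo2, a Slit receptor, was at 41.4 and 19.7 CPM, and Cntn1, an adhesion protein, at 36.1 and 69.4 CPM with 24 of 60 KO UMIs in 1 cell.

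The share of the cluster in the library differed as well, and by sex. Of annotated cells it was 2.07% (1.72% to 2.46%) in the het and 0.955% (0.735% to 1.22%) in the KO library, a ratio of 0.462 (0.336 to 0.631). By the deposited sex label, female cells gave 29 of 3035 (0.956%) and 30 of 2967 (1.01%), a ratio of 1.06 (0.614 to 1.83). Male cells gave 94 of 2915 (3.22%) and 33 of 3627 (0.910%), a ratio of 0.282 (0.184 to 0.424). The share in het males was the high one, and the other 3 lay between 0.910% and 1.01%. Cluster 17 was 23.6% female in the het library, where 51.6% of the other annotated cells were, and 47.6% and 45.0% in the KO library.

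The denominators moved the ratio. Of the cells outside the lymphoid and stromal clusters that the sort enriched, cluster 17 was 6.49% and 3.46%, a ratio of 0.532 (0.387 to 0.727). Of the cells of clusters 15, 17 and 19, it was 37.4% and 30.4%, a ratio of 0.814 (0.591 to 1.11). Each genotype and sex is 1 pool of mice, so the difference between pools, between genotypes and in how much tissue was scraped cannot be told apart.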

How the data were processed

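Single cells of dural meninges from 1 Il33 het and 1 Il33 KO mouse library were aligned to mm10 and counted by the authors, and the submitters' processing notes name Cell Ranger 3.0.2; which gene annotation was used is not stated in the labels or headers. Raw UMI counts per gene and cell were taken from the authors' deposited table of annotated cells, with its cluster, genotype and sex labels, and 1673 of its 42031965 values above 0 differ from the deposited matrices. The mitochondrial percentage of UMIs per cell was computed by the authors and taken as deposited, with medians of 5.76% and 6.34% in cluster 17. The libraries hold 113220628 and 122426614 UMIs. In cluster 17 there were 1690172 UMIs in het and 864864 in KO cells, with 2502 to 47556 and 4252 to 33644 per cell. Of 36 barcode sequences that both libraries share, 0 belong to cluster 17 in both.

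From these counts, UMIs were summed over the cells of the cluster in each library and scaled to CPM. Ratios carry conditional binomial intervals, levels Poisson intervals and shares Clopper-Pearson intervals (95%). A gene was called at a ratio at least 1.5-fold from 1, and members of the 46 gene lists needed 20 UMIs. Comparisons with other clusters used a pseudocount of 5 CPM. No p-value was computed, because a genotype is 1 library and cells are not replicates.

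The genes named are the 30 with the highest ratio over the other clusters, the first 15 in each direction between libraries ranked by the interval bound nearest to 1, the first 10 of each sub-group, and list members; a few genes these rules name are not reported here. The rankings skip predicted genes, sex-linked markers (Xist and Y genes) and genes of ribosomal proteins, mitochondria, hemoglobin and antigen receptors. Cluster members and gene lists were chosen with earlier results of these data known, and the 15 cells of mixed content, the ranking without them and the runs without sub-groups were chosen after seeing the data. Sub-groups came from Ward clustering on 10 principal components of 1000 variable genes. Scrublet called 0.0504% and 0.0152% of cells as doublets, too few for the caller to have worked, so no cell was removed as a doublet, and the score was used in an alternative and to describe cells. Alternatives also covered TMM (edgeR 4.0.16), median-of-ratios factors, the mean of cell CPM, the minimum UMIs and each sex. Interval and ratio code was tested on simulated data. Python 3.11.15, numpy 2.4.6, pandas 2.3.3, scipy 1.17.1, scikit-learn 1.9.0 and scanpy 1.11.5 were used.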

Additional observations from a re-analysis of the deposited data

Results flagged for a closer look

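The share of cerebellar granule neuron-like cells of cluster 17 among annotated cells had a KO to het ratio of 1.06 (0.614 to 1.83) in cells labelled female and 0.282 (0.184 to 0.424) in cells labelled male, values on opposite sides of 1. The difference between the sexes was not tested, since each sex of each genotype is 1 pool of mice. With sex called from Y-linked genes and Xist together, the ratios were 1.79 (0.907 to 3.65), from 15 het and 25 KO cells, and 0.257 (0.161 to 0.401), from 86 and 27 cells.

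Barcodes outside the authors' annotated cells also carried these genes. Of the het library's 4986 unannotated barcodes, 23 (0.461%, 0.293% to 0.691%) had UMIs of at least 10 of the 30 leading genes, and of the KO library's 5452 barcodes 13 (0.238%, 0.127% to 0.407%) did. A count of 0 would allow up to 0.0602% and 0.0550%. Of these barcodes, 15 het and 8 KO had more than 15% mitochondrial UMIs. In the annotated cells the same criterion met 122 of 123 het and 60 of 63 KO cells of cluster 17, and 18 and 10 cells of other clusters. Over all barcodes it met 163 and 83, and the ratio of their shares was 0.462 (0.351 to 0.606).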

How the results depend on the processing

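The share ratio of 0.462 became 0.814 among the cells of clusters 15, 17 and 19, 1.06 in female and 0.282 in male cells, 1.79 and 0.257 with sex called from Y-linked and Xist UMIs, and 0.336 without the cells of highest Scrublet score. Against 152 higher genes, there were 82 without each gene's top cell, 82 without the 15 cells of mixed content, 71 in female cells, 881 with a minimum of 20 UMIs and 2596 with at least 1 UMI in each library. Against 125 lower genes, there were 83 without the 15 cells, 58 in female cells, 257 without the highest Scrublet scores, 753 with 20 UMIs and 1681 with at least 1 UMI. The lower minimums tested more genes, and the runs on subsets had fewer cells; otherwise the cause was not tested.

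On the log2 scale, single genes changed sign as follows. Without the highest Scrublet scores, Sepp1 was at -2.68, Fxyd5 -0.53, Col8a1 0.42, Apod 0.18 and Lum 0.90. In male cells, Fxyd5 was at -0.72, Igfbp7 -1.55, Mgp -0.30, Cdkn1c -0.58, Cpxm1 -0.67 and Ptgds 0.37. Without the 7 cells of stromal UMIs, Igfbp7 was at -1.02, Mgp -0.032, Apod 0.36, Lum 0.80 and Ptgds 0.32. Without the 15 cells, Sepp1 was at -1.66, Fxyd5 -0.17, Igfbp7 -1.06, Mgp -0.055 and Lum 0.76, and the median of the macrophage markers was -0.051. Ptgds was at 0.40 without its top cells. With a minimum of 1 UMI the medians were 0.10 for pinealocyte, 0.97 for olfactory sustentacular and 2.55 for T or NK cell markers, and the fibroblast median was -0.21 in male cells. Of the single genes and list medians, 645 values stayed within the interval or range of the main value, 198 moved and 27 changed sign.

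No paired analysis was possible because each genotype is 1 library. The 63 KO cells limit what a count of 0 shows, and the intervals hold no spread between mice. The reporter allele is in both genotypes.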

Other observations

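Among 17 pathway lists compared between KO and het cells of cluster 17, the immediate early genes had the highest median and apoptosis genes came next. Of 15 measured apoptosis genes 10 were higher and 5 lower in KO cells, with a median log2 ratio of 0.30, and 4 were at least 1.5-fold higher, beside 50.4% of all genes above 1 and 10.7% at least 1.5-fold higher. Cdkn1a, the cell cycle inhibitor p21, was at 10.1 CPM in het and 46.2 CPM in KO cells (ratio 4.60, interval 2.55 to 8.65). It was detected in 14 het and 11 KO cells, and 1 KO cell held 10 of the 40 KO UMIs. Bbc3, the proapoptotic protein PUMA, was at 18.9 and 37.0 CPM, and Mcl1, which opposes apoptosis, at 154 and 221 CPM. Of 13 measured glycolysis genes 9 were lower and 4 higher, with a median of -0.20. Ldha and Ldhb, the 2 subunits of lactate dehydrogenase, lay on opposite sides, at ratios of 0.614 (0.488 to 0.768) and 1.38 (1.17 to 1.63).

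A few cells held lineage factors of other neurons. Lhx2 had 105 UMIs in 5 cells, 69 in 1 het and 33 in 1 KO cell, all in the dividing sub-group. Dlx1 and Dlx6os1, of forebrain inhibitory neurons, had 13 UMIs each in 2 KO cells and 0 in het cells. Neurog2 had 15 of 18 UMIs in 1 KO cell, and Olig1, of the oligodendrocyte lineage, 40 of 42 in 1 KO cell. Ebf2 had 49 UMIs in 14 het cells, and 0 in 63 KO cells. Of the 49 UMIs, 22 were in the 4 het cells with stromal UMIs and 34 in cells labelled female.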
